A study of Mus musculus with 6 samples.

Results

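The Slc25 family comprises the carriers that move metabolites, nucleotides, phosphate, cofactors and metal ions through the inner mitochondrial membrane. Its members were the genes whose symbol is Slc25a followed by a number, and 43 of the 20624 genes in the deposited table met this rule. No symbol occurred more than once. The annotation of the same genome build holds 47 such symbols, and the other 4, *Slc25a31*, *Slc25a41*, *Slc25a43* and *Slc25a54*, had no value here. RNA was sequenced after depletion of ribosomal RNA in 6 samples of mDCT15 cells, a mouse line from the distal convoluted tubule. There were 3 wild type and 3 *Pkd1*-/- samples, titled as biological replicates and cultured alike, without a treatment, in medium with fetal bovine serum. The *Pkd1*-/- cells were made by CRISPR-Cas9 editing, and the genotype label calls them a knockdown while the titles and the study call them a knockout. Whether they are a single clone is not given in the sources used here.

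The value analysed for each gene is the mean normalised count that the authors calculated over all samples, with both genotypes pooled. It carries no standard deviation and no sample number of its own, and the depth of single samples is unknown. The rest of the table is the authors' own comparison of the genotypes, which was left aside, so no difference between *Pkd1*-/- and wild type cells is given for any carrier. The values describe the level of each carrier over the 6 mDCT15 samples. Levels of carriers were compared mainly after division by the length of the canonical transcript in kb, and the result is the level per kb. Other lengths are named where they were used. Mean normalised counts are also given and compared without this division, and those comparisons are not corrected for length. Levels of neighbouring genes in the order cannot be said to differ, since no spread over samples was available.

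A mitochondrial carrier is a small membrane protein built from a module that is repeated along the chain, and it works by opening in turn to the intermembrane space and to the matrix. Each repeat carries a signature with a proline, an acidic residue and a basic residue, which form the salt bridges that close the carrier on the matrix side. In kidney tubule cells, which rely on oxidative metabolism for ion transport, carriers of ADP, ATP and phosphate serve the synthesis and export of ATP. Other carriers link the cytosol with the citric acid cycle, the urea cycle, amino acid breakdown and iron-sulphur cluster assembly.

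The signature was searched codon by codon in the coding sequences of the canonical transcripts. It was defined as a proline codon (CCN), any codon, an aspartate or glutamate codon, 2 codons of any kind, and a lysine codon (AAA or AAG) or arginine codon (AGA or AGG or CGN), read in frame on the coding strand. The matches of the 3 highest carriers per kb are shown because these genes gave 50.9% of the summed level per kb of transcript of the family. In addition, *Slc25a4* and *Slc25a5* are close relatives, with coding sequences 78.6% identical over 888 aligned bases. Capitals mark the proline, acidic and basic codons, and each line reads 5′ to 3′ on the strand of the gene.
Slc25a4 signature 1: CCGatcGAGagggtcAAA
Slc25a5 signature 1: CCCatcGAGagggtcAAG
Slc25a3 signature 1: CCCctgGACttagtaAAG
Slc25a4 signature 2: CCGctgGACtttgctAGG
Slc25a5 signature 2: CCTcttGATtttgccCGT
Slc25a3 signature 2: CCTatgGAAgctgctAAA
Slc25a4 signature 3: CCGtttGACactgttCGT
Slc25a5 signature 3: CCTtttGACacggttCGC

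All of these lie in coding exons of GRCm39. The matches of *Slc25a4*, on the minus strand, are at chr8:46663861-46663878 in exon 1 of 4, chr8:46662243-46662260 in exon 2 and chr8:46661469-46661486 in exon 3. Those of *Slc25a5*, on the plus strand, are at chrX:36059465-36059482 in exon 1 of 4, chrX:36060781-36060798 in exon 2 and chrX:36061478-36061495 in exon 3. In both genes they start at codons 28, 133 and 230. *Slc25a3*, on the minus strand, has its matches at chr10:90957796-90957813 in exon 2 of 7 and chr10:90954644-90954661 in exon 4, from codons 80 and 177.

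Of the 43 coding sequences, 26 (60.5%) held 3 matches, 9 held 2, 5 held 1 and 3 held none. No member held more than 3. Among the 6798 other protein-coding genes of the table whose coding sequence was as long as those of the family, from 265 to 677 codons, 56 (0.824%) held 3 or more. Only 8 of those 56 had 3 successive matches 82 to 150 codons apart, the range of spacing within the 26 carriers, and *Ucp2* and *Ucp3*, uncoupling proteins of the same superfamily under another name, were among the 8. In the 26 carriers the first and second matches were a median of 98 codons apart, and the second and the third a median of 97. *Slc25a39* had the widest first gap, at 150 codons. In *Slc25a12* and *Slc25a13*, whose proteins have a long calcium-binding part ahead of the carrier, the first match came at codons 346 and 349, later than in any other member. Next was *Slc25a44*, at codon 242 of 314, and this was its only match. *Slc25a25*, *Slc25a24* and *Slc25a23* followed, with first matches at codons 239, 214 and 204. The members with no match were *Slc25a46*, *Slc25a51* and *Slc25a53*. When a further basic codon was required 2 codons after the last, only 11 members held 3 matches.

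**Figure D1:**
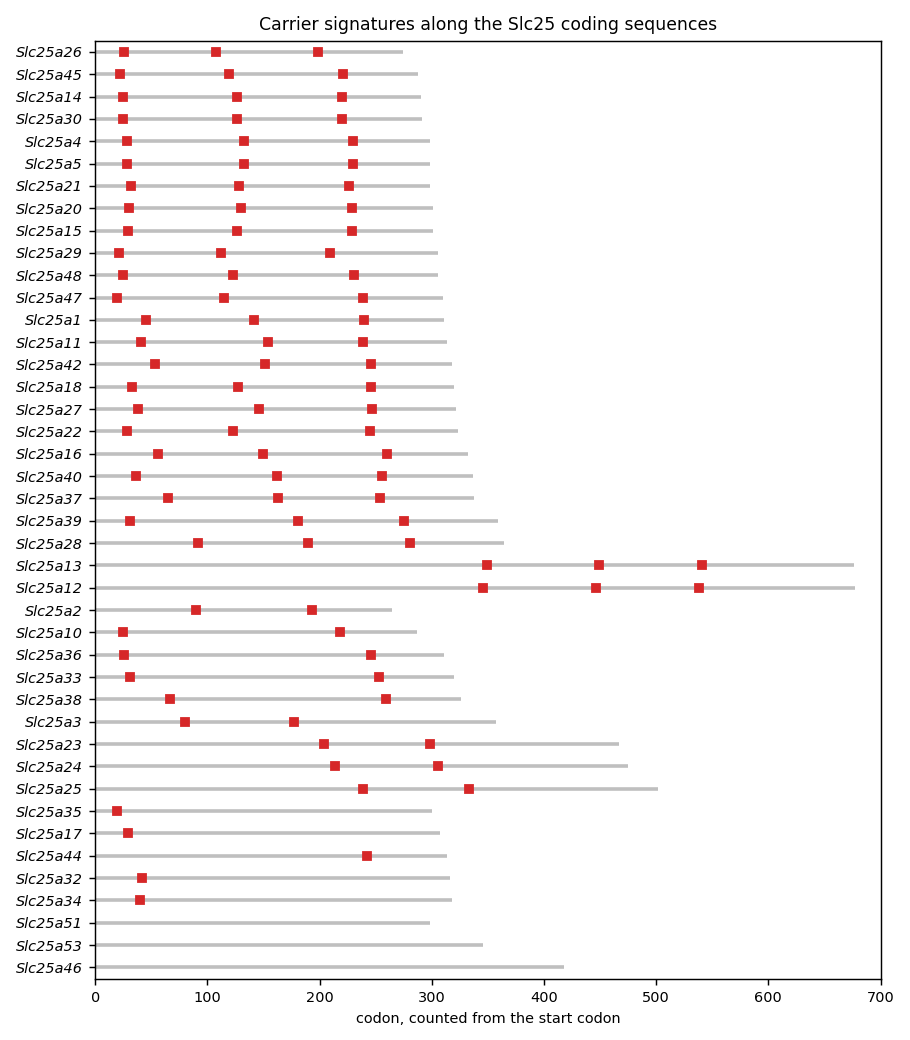
Position of each signature match (red squares) along the coding sequence (grey bars, length in codons from the start codon) of 42 of the 43 Slc25 genes, ordered by number of matches and length. In most genes the matches form 3 steps 82 to 150 codons apart, and the 3 genes at the foot hold none.

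Most of the carriers with a value were well detected in mDCT15 cells. Of the 43 members, 40 (93.0%) had a mean normalised count of at least 10, against 66.5% of all genes in the table. At least 100 was reached by 33 members (76.7%, against 50.3% of all genes) and at least 1000 by 14 (32.6%, against 20.9%). The median of the members was 477, against 104.5 over all genes. All genes here include those that do not code for protein, and these shares were not calculated for protein-coding genes alone. The members together held 0.258% of the summed mean normalised counts of the table. Per kb the family lay at a median of 159, against 63.3 over the 18939 genes that had a transcript length and a mean no lower than 1. The median member stood at percentile 64.7 of those genes. The place was lower among genes of the same kind. Over the 13500 protein-coding genes alone the median level per kb was 149, and the median member stood at percentile 51.8. The median carrier thus lay close to the median protein-coding gene.

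**Figure D2:**
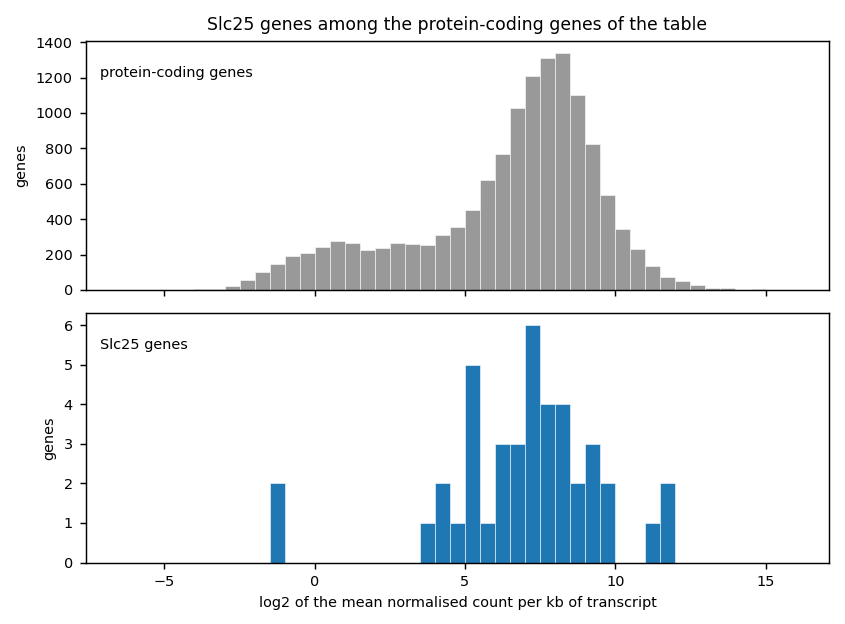
Number of genes by log2 of the level per kb, for the 13500 protein-coding genes whose mean normalised count reached 1 (upper panel, grey) and for the 42 Slc25 genes past the same limit (lower panel, blue). The carriers spread over most of the range of coding genes, with 3 apart at the upper end and 2 apart at the lower.

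The level was concentrated in a few members. *Slc25a4*, *Slc25a3* and *Slc25a5* together gave 50.9% of the summed level per kb of the 43 carriers, and the 10 highest gave 77.1%. Such shares were calculated only per kb of canonical transcript, and with another length they may differ. They were not calculated for other sets of genes, so the concentration is not shown to be particular to the carriers. After these 3 genes there was a gap, from 2433 per kb in *Slc25a5* to 923 in *Slc25a11*. The 10 highest were, in order, *Slc25a4*, *Slc25a3*, *Slc25a5*, *Slc25a11*, *Slc25a39*, *Slc25a1*, *Slc25a17*, *Slc25a24*, *Slc25a51* and *Slc25a13*. Of the 10, 8 stayed among the highest when coding length was used in place of transcript length.

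**Figure D3:**
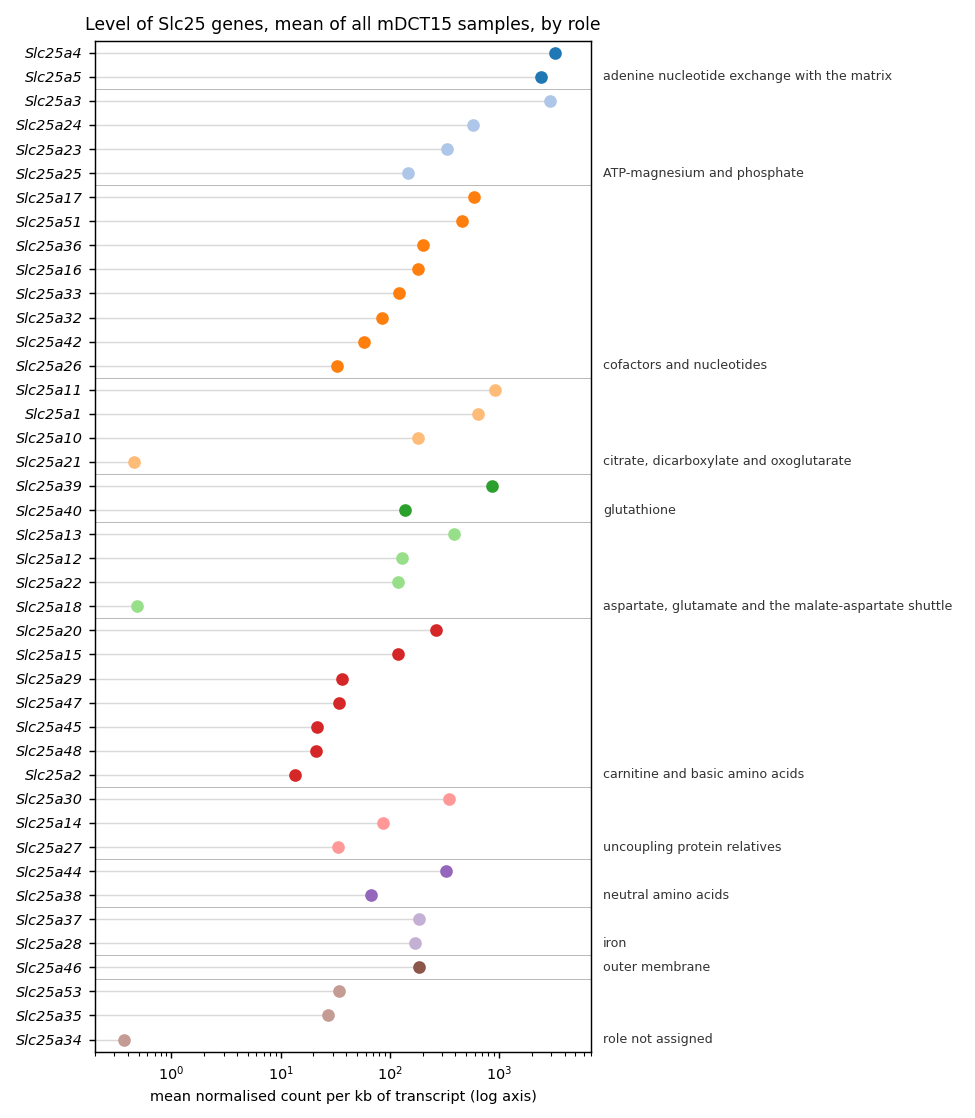
Level of 42 of the 43 Slc25 genes as the authors' mean normalised count over all 6 samples per kb of canonical transcript (log axis), grouped by role with the group of highest summed level on top. *Slc25a4*, *Slc25a3* and *Slc25a5* lie at 2433 to 3291 per kb, while *Slc25a18*, *Slc25a21* and *Slc25a34* lie at 0.364 to 0.485.

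The ADP/ATP carriers, which export ATP from the matrix in exchange for ADP, held 33.6% of the summed level per kb of the family. *Slc25a4* (ENSMUSG00000031633, minus strand, chr8:46656538-46664325) had a mean normalised count of 6348 and a level of 3291 per kb, at percentile 99.2 of all genes. *Slc25a5* (ENSMUSG00000016319, plus strand, chrX:36059223-36062462) had a mean of 3219 and a level of 2433 per kb, at percentile 98.7. *Slc25a4* was thus 1.35 times *Slc25a5* per kb. This order depends on how reads with several matches are treated. Of the 42-base windows of the *Slc25a5* transcript, the length of a read in this study, 66.6% also occur without a mismatch elsewhere in the genome, against 0.530% of those of *Slc25a4*. For fragments of 200 bases, 43.1% of those of *Slc25a5* had both ends elsewhere as well. The counting step was run with its default settings, under which reads with several matches are left out. Per kb of windows found nowhere else, *Slc25a5* came to 7522 and *Slc25a4* to 3380, so that *Slc25a5* was the higher by 2.23 times. With the fragments it was the higher by 1.30 times. Both settings were chosen after the values were seen, and which ADP/ATP carrier is the more abundant is therefore not settled by this table. The 33.6% and the other shares of the level of the family use whole transcript length and were not recalculated under these settings. A pseudogene listed as *Slc25a5-ps*, which is not a member, had a mean of 2.49.

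The phosphate carrier *Slc25a3*, which supplies phosphate for ATP synthesis and also carries copper, had the highest mean normalised count of the family, 8241. Its gene lies on chr10:90951400-90975683. Per kb of transcript it came second, with 2942, and per kb of coding sequence it came first. The ATP-magnesium/phosphate carriers set the size of the matrix adenine nucleotide pool and are gated by calcium. Among them *Slc25a24* was highest, with a mean of 2084 and 582 per kb, followed by *Slc25a23* with 338 per kb and *Slc25a25* with 147 per kb. *Slc25a24* was 3.96 times *Slc25a25*. With *Slc25a3* these genes held 23.6% of the level of the family.

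The carriers of citric acid cycle intermediates ranged from among the highest to the edge of detection. *Slc25a11*, which exchanges oxoglutarate for malate in the malate-aspartate shuttle, had a mean normalised count of 1591 and 923 per kb. *Slc25a1*, the citrate carrier that feeds cytosolic lipid synthesis, had 1186 and 645 per kb. Per kb of all exons the order turned, with 494 for *Slc25a1* and 381 for *Slc25a11*. *Slc25a10*, the dicarboxylate carrier, had 733 and 184 per kb. *Slc25a21*, the oxodicarboxylate carrier of lysine and tryptophan breakdown, had a mean of only 1.18. *Slc25a11* was 5.03 times *Slc25a10* per kb of transcript but 1.98 times per kb of coding sequence.

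The aspartate/glutamate carriers complete the malate-aspartate shuttle. *Slc25a13*, which encodes citrin, had a mean normalised count of 1627 and 387 per kb. *Slc25a12*, which encodes aralar, had 831 and 131 per kb, so that *Slc25a13* was 2.95 times *Slc25a12*. Their coding sequences are 72.3% identical over 2008 aligned bases, and few of their windows occur elsewhere (1.25% of those of *Slc25a13* and 3.28% of those of *Slc25a12*). Of the glutamate carriers, *Slc25a22* had a mean of 339 and 119 per kb. *Slc25a18* had a mean of 1.34, although its coding sequence is 72.7% identical to that of *Slc25a22*. Its ratio to *Slc25a22*, 246 times lower, rests on a mean near a single read and has no error. Of the canonical transcript of *Slc25a18*, 70.1% lies opposite exons of *Atp6v1e1*, a proton pump subunit gene with a mean of 1340.

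The group of carnitine and basic amino acid carriers, with related genes placed beside them, ranged from 13.5 to 267 per kb, with a median of 34.4. *Slc25a20*, which brings acylcarnitines into the matrix for fatty acid oxidation, had the highest level of the group, with a mean normalised count of 477 and 267 per kb. *Slc25a15*, the ornithine carrier of the urea cycle, had 411 and 118 per kb. *Slc25a2*, a second ornithine carrier with a single exon, had 18.2 and 13.5 per kb, and *Slc25a15* was 8.71 times as high per kb. *Slc25a29*, a carrier of basic amino acids, had a mean of 86.0 and 36.3 per kb, and *Slc25a20* was 7.37 times as high. The related *Slc25a45*, *Slc25a47* and *Slc25a48* had means of 70.4, 55.5 and 72.0. *Slc25a47* was 1.64 times *Slc25a48* per kb of transcript, while *Slc25a48* was 1.31 times *Slc25a47* per kb of coding sequence. *Slc25a29* and *Slc25a47* lie next to each other on chromosome 12 on opposite strands, and 9.70% of the canonical transcript of *Slc25a29* lies opposite annotated exons of *Slc25a47*. The canonical transcript of *Slc25a47* itself lies opposite none of *Slc25a29*.

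Of the carriers of other amino acids, *Slc25a44*, which imports branched-chain amino acids, had a mean normalised count of 1156 and 329 per kb. *Slc25a38*, which imports glycine for haem synthesis, had 125 and 67.6 per kb, so that *Slc25a44* was 4.87 times as high. The glutathione carriers differed in the same way. *Slc25a39* had a mean of 2516 and 864 per kb, and *Slc25a40* had 389 and 139 per kb, a ratio of 6.22. Of the *Slc25a40* windows, 26.6% occur elsewhere in the genome, and without them the ratio was 4.56. Of the *Slc25a39* canonical transcript, 28.0% lies opposite exons of *Rundc3a*, whose mean was 9.27.

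The mitoferrins, which import iron for haem and iron-sulphur clusters, had similar levels per kb of transcript only. *Slc25a37*, known for its role in red cell precursors, had a mean normalised count of 772 and 185 per kb. *Slc25a28*, the widely expressed form, had 457 and 171 per kb. *Slc25a37* was 1.08 times *Slc25a28* per kb of transcript, 1.82 times per kb of coding sequence and 1.95 times per kb of all exons.

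Carriers of cofactors and nucleotides numbered 9 and held 11.2% of the level of the family. *Slc25a17*, a carrier of the peroxisomal membrane, had a mean normalised count of 1049 and 591 per kb. *Slc25a51*, which imports NAD into mitochondria, had 2047 and 461 per kb, and 19.7% of its windows occur elsewhere. The order of these genes turned with the length used. *Slc25a51* had 2282 per kb of coding sequence, against 1136 for *Slc25a17*, and 305 against 225 per kb of all exons. The pyrimidine nucleotide carriers *Slc25a36* and *Slc25a33* had 203 and 122 per kb, with 23.4% of the *Slc25a36* windows found elsewhere. *Slc25a16*, linked to coenzyme A, had 180 per kb. *Slc25a32*, which carries folate or FAD, had 84.6 per kb, and *Slc25a42*, a coenzyme A carrier, had 58.4 per kb. *Slc25a26*, the carrier of S-adenosylmethionine, was lowest with a mean of 109 and 32.8 per kb. Of its canonical transcript, 44.5% lies opposite exons of *Lrig1*, whose mean was 2487. Whether reads of *Lrig1* entered the value was not tested.

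Of the relatives of the uncoupling proteins, *Slc25a30* had a mean normalised count of 1245 and 347 per kb, *Slc25a14* had 156 and 86.3 per kb, and *Slc25a27* had 96.6 and 33.4 per kb. *Slc25a30* was 4.02 times *Slc25a14*. *Slc25a46*, which acts at the outer membrane in mitochondrial dynamics rather than as a transporter, had 820 and 186 per kb. The remaining carriers, for which no role was assigned, lay below 63.3 per kb, the median over all genes with a transcript length and a mean no lower than 1. *Slc25a53* had a mean of 110, *Slc25a35* a mean of 68.7 and *Slc25a34* a mean of 0.979. Per kb of transcript *Slc25a53* lay above *Slc25a35* (34.3 against 27.2), and per kb of all exons below it (7.10 against 14.7). The means of *Slc25a18*, *Slc25a21* and *Slc25a34* lie below the minimum count that the methods of the study state for a gene to be kept, and how that minimum was applied is not known.

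Among the 15 related pairs, 2 differed by at least 10 times per kb, *Slc25a18* with *Slc25a22* and *Slc25a34* with *Slc25a35*, and in both the lower gene had a mean under 2. In 5 pairs the ratio was under 2. The ratios describe the pooled means and carry no error, and they moved with the length used. *Slc25a15* was 19.9 times *Slc25a2* per kb of coding sequence but 3.38 times per kb of all exons of the gene. *Slc25a39* was 17.0 times *Slc25a40* per kb of all exons but 6.08 times per kb of coding sequence. Of the 43 members, 22 had no window that occurs elsewhere in the genome, and 4 had more than 10% of their windows elsewhere (*Slc25a5*, *Slc25a40*, *Slc25a36* and *Slc25a51*). The canonical transcripts were also set against all annotated exons of the other genes of the table. No canonical transcript of a member overlapped such exons on the same strand, and 10 did so on the opposite strand, 3 of them over more than 10% of the transcript.

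**Figure D4:**
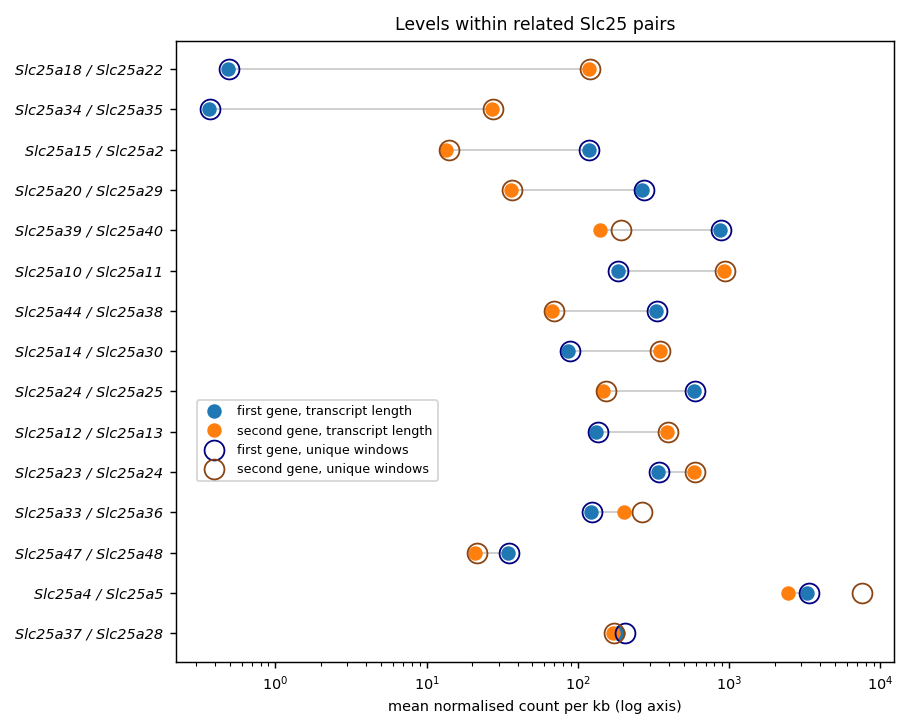
Level per kb (log axis) of both genes in 15 related pairs, from the whole transcript (filled points) and from the windows of 42 bases found nowhere else in the genome (open circles). *Slc25a5* moves from 2433 to 7522 and passes *Slc25a4*, while *Slc25a18* and *Slc25a34* lie far below their partners.

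Genes that work alongside the carriers were also measured. The pores of the outer membrane, through which most metabolites reach the carriers, had high levels, with 2538 per kb for *Vdac1*, 4103 for *Vdac2* and 893 for *Vdac3*, of whose windows 78.7% occur elsewhere. The carrier homologues of the outer membrane, *Mtch1* and *Mtch2*, had 1900 and 681 per kb. Of the pyruvate carrier, *Mpc2* had 450 per kb and *Mpc1* 167, with 65.8% of the *Mpc1* windows found elsewhere. *Ucp2* had 356 per kb, against 0.797 for *Ucp3*. The 8 listed genes of the small chaperones and the translocase that insert carriers into the inner membrane ranged from 10.4 per kb in *Timm8a1* to 329 in *Timm13*, with *Timm22*, the central channel, at 136. The 5 sideroflexins, which include the serine carrier *Sfxn1*, ranged from 43.8 per kb in *Sfxn5* to 388 in *Sfxn3*. The 7 genes listed for calcium handling at the inner membrane ranged from 22.8 per kb in *Mcub*, which dampens the uniporter, to 1326 in *Smdt1*, its small regulator, with *Mcu*, the pore, at 387.

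As a check of the cells, 6 of the 10 listed markers of the distal convoluted tubule had a value, 5 of them at a mean normalised count of at least 10. *Wnk1* was highest with 8468, and *Stk39*, *Wnk4*, *Hsd11b2* and *Trpm6* had means of 621, 413, 122 and 29.6. *Klhl3* was lowest with 5.70. *Slc12a3*, the sodium-chloride cotransporter that defines the segment, had no value here, nor did *Pvalb*, *Calb1* or *Cldn8*. Of the 8 listed markers of kidney epithelium, the transcription factors *Pax8* and *Pax2* had means of 4905 and 2428 and the adhesion molecule *Epcam* had 115. The keratin *Krt8* had 0.980, and *Cdh1*, *Krt18*, *Cldn7* and *Emx1* had no value here. Of the proximal tubule markers, *Lrp2* and *Aqp1* had means of 8826 and 11355, while *Slc34a1* and *Slc5a2* had 2.04 and 2.77. The markers thus do not place the cells in a single tubule segment, and the name distal convoluted tubule is the one the study gives to the line. The highest markers of collecting duct, podocyte and endothelium had means of 1.95, 2.22 and 4.68. Of the 4 fibroblast markers, *Col1a1* had a mean of 201, and *Col1a2*, *Pdgfra* and *Pdgfrb* had 2.71, 4.12 and 4.48. Of the 3 blood markers, *Cd68* had 41.9, *Ptprc* had 5.36 and *Hbb-bs* had no value here. *Pkd1* had a mean of 3175 over both genotypes, which says nothing about the label of any sample.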

How the data were processed

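Total RNA of 3 *Pkd1*-/- and 3 wild type mDCT15 samples was sequenced as paired reads of 42 bases. The authors trimmed reads with Trim Galore 0.4.5, mapped them to GRCm39 with STAR 2.7.5a, counted them per gene with HTSeq 0.11.0 under default settings and Ensembl annotation, and ran DESeq2 1.22.0 in R 3.5.3. The deposited mean normalised count is a signal, the mean over all 6 samples of counts divided by library size factors. Its lowest value in the table is 0.618, although a minimum of 5 counts for each gene and sample is stated in the methods, so that the way this minimum was applied is not known. The other numeric columns hold the authors' log2 fold changes, their errors, test statistics and p-values for the comparison of the genotypes. They were not used. No column belongs to a single sample, so no test between genotypes, replicate check or depth per sample was made, and the precision of each value is unknown. The default settings of HTSeq count by strand. The strand that the reads of the kit represent is not given in the sources used here.

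Transcript lengths, coordinates and coding sequences came from GENCODE M39 on GRCm39, which held 20122 (97.6%) of the gene identifiers in the table. The authors counted reads with another annotation release. Values per kb of all exons may therefore be divided by exons that were not counted, and orders and ratios from that length carry this limit. Canonical transcripts were used. Windows of 42 bases were searched for exact matches on both strands of the genome outside the gene's own span, and the search for windows and for signatures was tested on simulated sequences. Coding sequences of pairs were aligned globally with Biopython 1.88. Overlaps of canonical transcripts with all exons of other genes were found with bedtools 2.31.1. Python 3.11.15, numpy 2.4.6, pandas 2.3.3 and matplotlib 3.10.9 were used. The signature search planned on proteins was run on codons. The members and the lists of roles, pairs and accompanying genes were chosen with earlier results of these data known. Named with values were the 10 highest members per kb, members of pairs, the highest and lowest of each role and members with a mean under 10, the other members were named by role after their values were seen, and genes opposite a member were added after the values were seen. Alternatives were other lengths, filters, signatures and limits. The values of 1 member are not reported here, although it is included in the counts and medians.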

Additional observations from a re-analysis of the deposited data

How the results depend on the processing

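The number of members with a mean normalised count of at least 10 was 40, and it was 39 to 40 with a minimum of 5 or 20 or a sum over identifiers. The median level of the family, 159 per kb, was 74.8 with the union of all exons, 451 with coding length, 147 without the filter on the mean and 175 per kb of windows found nowhere else. Its median percentile, 64.7, was 51.8 among protein-coding genes, 65.3 without the filter, 62.3 with the union of exons and 56.9 with coding length. The members with 3 signatures numbered 26, with 27 when a serine codon was allowed first and 11 when a further basic codon was required. Of the 10 highest members, 8 to 10 were kept under the other lengths. The pairs differing by at least 10 times numbered 2 or 3 under the other lengths, and 6 differed by at least 5 times. The order of *Slc25a4* and *Slc25a5* turned when repeated windows (2.23 times) or fragments (1.30 times) were left out, and that of *Slc25a47* and *Slc25a48* turned with coding length (1.31 times). Settings without repeated windows or fragments were chosen after seeing the data. Leaving out a replicate was not possible, since no value belongs to 1 sample.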
